A study of Mus musculus with 6 samples.

Results

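The Gm21158/Gm3893 family is a set of repeated gene copies, nearly all typed as pseudogenes, on mouse chromosome 4. It was measured in the dissected forebrain and midbrain of 6 mouse embryos at E10.5. There were 3 Tasp1 KO heads and 3 wild type (WT) heads, labelled as C57Bl6, all from crosses between Tasp1+/- parents. The KO heads are labelled Tasp1-/-. Tasp1 encodes the protease Taspase1, and the labels name no promoter, Cre or cell type that would restrict its loss. Each head was read on 1 Affymetrix array from 100 ng of total RNA, and the study asked which genes Taspase1 regulates in the embryo. Members were the probe sets (groups of short probes read out as 1 value) whose annotation lists 2 or more of 7 symbols: Gm21158, Gm3893, Gm7819, Gm10590, Gm5859, 4933409K07Rik and 4930578G10Rik. This gave 9 of 35556 probe sets. The members were chosen by their KO minus WT difference in log2 signal, for being far lower in the KO-labelled embryos, so that difference is described here and not tested.

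Symbols that start with Gm are placeholders for predicted mouse genes, and those that end in Rik come from cDNA clones of the RIKEN collection. A pseudogene is a copy of a gene that has lost the ability to make the original protein, and it may still be transcribed. The part of chromosome 4 that holds these copies also holds duplicated chemokine and cytokine receptor genes: Ccl21 and Ccl19, whose proteins guide T cells and dendritic cells to lymph nodes, Ccl27, whose protein draws T cells to skin, and Il11ra, a receptor for interleukin 11.

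In the gene table of assembly GRCm38.p6, all 7 symbols were found on chromosome 4, 1 of them (Gm10590) only as an older name of Gm2192. Gm10590 and 4930578G10Rik have another gene ID there than in the array annotation, so their placement rests on the name. The table types 5 of them as transcribed pseudogenes, Gm21158 as a pseudogene and 4930578G10Rik as a long non-coding RNA. On the main sequence of the chromosome lie 4 (Gm3893, Gm5859, 4930578G10Rik and Gm21158). The other 3 (Gm7819, Gm10590 and 4933409K07Rik) are listed on separate sequences assigned to the chromosome. Of the probe sets, 7 list 6 symbols and 2 list all 7, the extra one being 4930578G10Rik. All 9 share the same 10 cDNA and transcript entries in the annotation, so they do not measure the copies apart. A pair of them (10504123 and 10504125) held identical values, which leaves 8 distinct measurements.

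The promoter table of RefSeq holds 1 of the 7 members, 4930578G10Rik, which also has a probe set that lists it alone. Its window, from 250 bases before to 50 bases after the start, is shown because 4930578G10Rik is the only symbol that separates the 7-symbol from the 6-symbol probe sets. The window was matched by symbol only, and the gene ID of 4930578G10Rik differs between the gene table and the array annotation. Whether it belongs to the gene that the probe sets list is thus not settled. The window lies on the plus strand at chr4:42670040-42670339 (GRCm38.p6). Capitals mark GGGCGG, the GC box, searched on both strands.
4930578G10Rik: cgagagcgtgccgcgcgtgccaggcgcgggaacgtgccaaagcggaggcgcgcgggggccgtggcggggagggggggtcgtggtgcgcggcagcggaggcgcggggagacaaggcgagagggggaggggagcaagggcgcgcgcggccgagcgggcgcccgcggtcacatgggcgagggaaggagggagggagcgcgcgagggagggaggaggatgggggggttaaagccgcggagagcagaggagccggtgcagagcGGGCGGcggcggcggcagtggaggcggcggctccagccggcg

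This window is 78.7% G or C and holds 46 CG dinucleotides, against a median of 52.7% and 7 over all 32851 windows of the table. It has 1 match to GGGCGG, which 35.7% of all windows hold. TATAAA and CCAAT, searched the same way, were not in it, and 13.6% and 37.4% of all windows hold them.

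The sequences of the neighbouring copies show how little separates them. The Ccl21d and Gm13304 windows, 2 of the Ccl21 copies, lie on the plus strand at chr4:41903363-41903662 and chr4:42114537-42114836 (GRCm38.p6, RefSeq). They differ at 1 of 300 positions, T143C, counted from 1 at the 5′ end of the window with the Ccl21d base first, and that base is in capitals. The Gm13304 window is the same, letter for letter, as that of a further copy, Gm10591.
Ccl21d: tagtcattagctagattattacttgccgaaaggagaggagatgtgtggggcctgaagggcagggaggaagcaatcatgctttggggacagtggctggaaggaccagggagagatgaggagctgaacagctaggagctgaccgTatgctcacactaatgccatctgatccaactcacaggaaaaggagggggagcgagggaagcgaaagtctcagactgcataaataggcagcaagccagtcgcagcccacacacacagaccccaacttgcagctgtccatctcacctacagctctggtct
Gm13304: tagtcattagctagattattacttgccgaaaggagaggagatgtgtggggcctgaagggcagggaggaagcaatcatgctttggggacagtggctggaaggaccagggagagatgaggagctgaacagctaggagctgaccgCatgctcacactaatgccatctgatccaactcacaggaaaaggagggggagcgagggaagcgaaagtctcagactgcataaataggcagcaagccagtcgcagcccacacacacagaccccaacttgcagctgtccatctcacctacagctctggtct

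The window of Ccl27b, at chr4:42650313-42650612 on the plus strand, likewise had 0 differences over 300 bases from that of the copy Gm13306. It is shown, with no capitals, as another repeated neighbour whose copies are listed together on the array.
Ccl27b: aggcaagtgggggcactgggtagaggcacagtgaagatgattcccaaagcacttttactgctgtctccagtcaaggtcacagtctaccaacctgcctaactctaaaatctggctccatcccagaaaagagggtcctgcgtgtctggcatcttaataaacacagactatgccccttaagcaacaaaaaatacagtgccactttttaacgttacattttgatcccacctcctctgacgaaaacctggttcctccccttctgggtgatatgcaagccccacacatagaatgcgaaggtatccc

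The array values are deposited log2 signals, with medians from 7.35 to 7.45 over the 6 arrays and correlations between arrays, across probe sets, from 0.977 to 0.995. WT 1 stood apart on the first principal component, with a score of 14.82 against −6.32 to 0.29 in the rest. WT 2 had the female pattern, with Xist at 12.32 against 4.90 to 5.24 in the other 5 heads, so all KO-labelled embryos and only 2 WT-labelled embryos had the male pattern. Tasp1 signal (probe set 10488090) was 8.50 to 8.63 in KO-labelled embryos, against 8.10 to 8.49 in WT-labelled embryos, so it was no lower. Its difference was +0.24, and +0.12 without WT 1. The sources used here do not say whether its probes fall within the deleted part, so it does not check the labels, and the groups are named by their labels, as KO-labelled and WT-labelled. Of 8 forebrain and midbrain markers, 7 were above the brightness filter (a mean log2 signal of 7.06), Otx2 and Sox2 being the brightest. Of 5 hindbrain markers 1 was, and of 5 germ cell markers 0.

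The mean of the 9 family probe sets was 7.62, 7.60 and 7.52 in KO-labelled embryos 1 to 3, against 9.39, 9.54 and 9.97 in WT-labelled embryos 1 to 3. Every KO-labelled embryo was thus below every WT-labelled embryo, and the KO-labelled embryos lay close together while the WT-labelled embryos spread over 0.58 log2 units. The group means were 7.58 ± 0.05 in KO-labelled and 9.63 ± 0.30 in WT-labelled embryos (SD, n = 3 each), a difference of −2.05, or a signal 4.16-fold lower. How much of the remaining signal in KO-labelled embryos is background is not known, so the fold describes array signal and need not be that of the RNA. With bulk tissue, fewer cells with the RNA and less RNA per cell cannot be told apart. The difference was −2.10 without WT 2, when all heads have the male pattern, and −2.18 without WT 1.

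**Figure D1:**
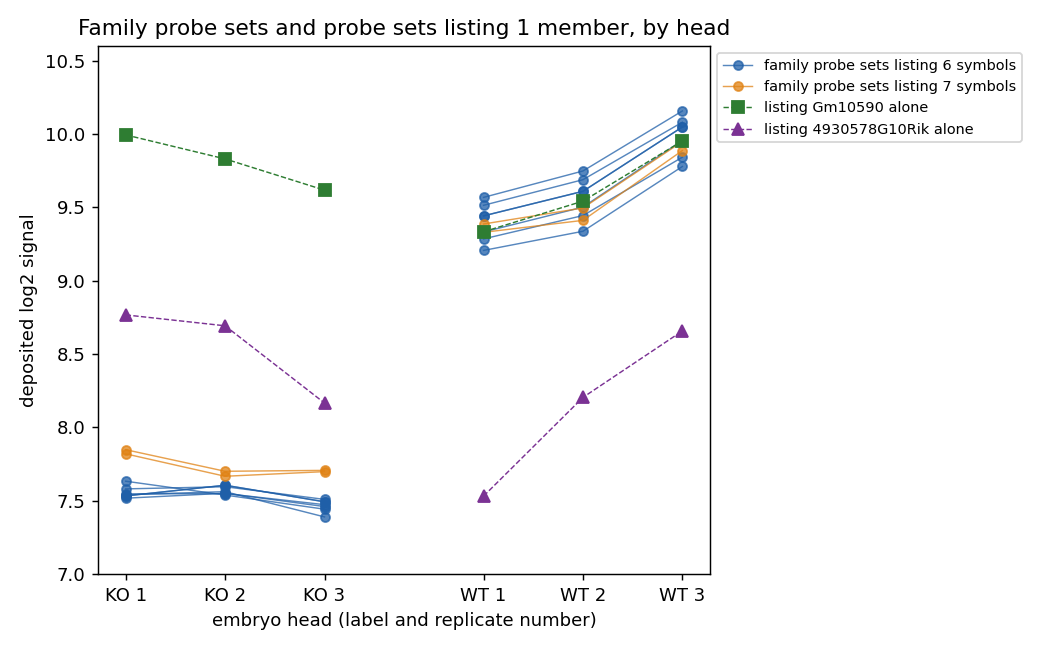
Deposited log2 signal (vertical axis) in each of the 3 KO-labelled and 3 WT-labelled embryos (horizontal axis). Each point is 1 probe set in 1 head and lines join the heads of a group only to follow a probe set. The 9 family probe sets lie between 7.39 and 7.85 in KO-labelled embryos and between 9.21 and 10.16 in WT-labelled embryos, while the probe sets listing Gm10590 or 4930578G10Rik alone overlap between the groups.

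All 9 members had every KO-labelled embryo below every WT-labelled embryo, where 6.24% of the 19615 probe sets above the filter did. All 9 passed the filter, though their KO-labelled levels, 7.39 to 7.85, lay much nearer to it than their WT-labelled levels. In the fit across all probe sets (limma with Benjamini-Hochberg adjustment), 0.0459% of probe sets passed an adjusted p of 0.05. These 9 were the members, and since the members were picked for this contrast, nothing is read from the count. The highest KO-labelled value of any member lay 1.36 log2 units below the lowest WT-labelled value of any member.

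The probe set with the largest difference was 10504148, which lists 6 symbols. It read 7.58, 7.60 and 7.51 in KO-labelled embryos and 9.57, 9.75 and 10.16 in WT-labelled embryos, a difference of −2.26 (4.80-fold lower). Next came 10504178, also with 6 symbols, at 7.55, 7.55 and 7.47 in KO-labelled embryos against 9.51, 9.69 and 10.08 in WT-labelled embryos (−2.24). In both, the 3 KO-labelled embryos lay within 0.1 of each other and WT 3 was the brightest head.

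The identical pair 10504123 and 10504125 read 7.53, 7.61 and 7.49 in KO-labelled embryos and 9.44, 9.61 and 10.05 in WT-labelled embryos, a difference of −2.16. Probe set 10504121 had 7.52, 7.55 and 7.46 in KO-labelled embryos against 9.33, 9.50 and 9.96 in WT-labelled embryos (−2.09), and 10504169 had 7.54, 7.56 and 7.39 against 9.29, 9.44 and 9.84 (−2.03). These repeat the same order of heads, with KO 3 lowest and WT 3 highest. The smallest difference among the 6-symbol probe sets was that of 10512327, with 7.63, 7.54 and 7.44 in KO-labelled embryos and 9.21, 9.34 and 9.78 in WT-labelled embryos (−1.90).

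The 7-symbol probe sets differed least. Probe set 10504139 read 7.85, 7.70 and 7.71 in KO-labelled embryos and 9.39, 9.50 and 9.95 in WT-labelled embryos (−1.86). Probe set 10504172 read 7.82, 7.67 and 7.70 in KO-labelled embryos and 9.33, 9.41 and 9.89 in WT-labelled embryos (−1.81). Their mean difference was −1.84, against −2.12 for the 7 probe sets that list 6 symbols, whose range of −2.26 to −1.90 did not reach it. In these 2 probe sets KO 2 was the lowest head, where KO 3 was lowest in the other 7. Each of the 7-symbol probe sets shares 1 annotation entry with the probe set that lists 4930578G10Rik alone.

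Within the WT-labelled embryos, all 9 members were lowest in WT 1 and highest in WT 3, an order found in 23.9% of all probe sets above the filter. The members list the same transcripts, so this is 1 pattern seen repeatedly and not 9 findings.

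Just outside the rule stand 5 probe sets that list exactly 1 member, and none of them was lower on average in the KO-labelled embryos. Gm10590 alone is listed by 4 probe sets with identical values (10504137, 10504201, 10512350 and 10512352). They read 9.99, 9.83 and 9.62 in KO-labelled embryos and 9.33, 9.54 and 9.95 in WT-labelled embryos. The groups overlapped, with means of 9.81 ± 0.19 and 9.61 ± 0.31 in KO-labelled and WT-labelled embryos (SD, n = 3 each). The difference of +0.20 did not pass (limma, 95% confidence interval −0.18 to 0.59, adjusted p = 0.837). It was +0.07 without WT 1, +0.11 without KO 1 and +0.38 without WT 3. These probe sets rest on 1 annotation entry that no member lists.

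4930578G10Rik alone is listed by probe set 10504203, which read 8.77, 8.69 and 8.17 in KO-labelled embryos and 7.53, 8.21 and 8.66 in WT-labelled embryos. The groups overlapped here too, and WT 1 was the lowest head. The means were 8.54 ± 0.33 in KO-labelled and 8.13 ± 0.57 in WT-labelled embryos (SD, n = 3 each). The difference, +0.41, did not pass (limma, 95% confidence interval −0.27 to 1.09, adjusted p = 0.831). It was +0.11 without WT 1 and +0.67 without WT 3. Both of these measurements had the same order of WT-labelled embryos as the family, lowest in WT 1 and highest in WT 3, which lay apart by 0.62 for Gm10590 and 1.13 for 4930578G10Rik.

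The genes around the family were taken from the gene table as those between Gm3893 and Gm21158 and the 15 on either side, 56 genes without the members. Only 18 of these 56 genes were listed by a probe set, so the others were not read here. The 18 were listed by 22 probe sets, of which 20 were above the filter and 15 held distinct values. Of the 20, 6 were higher and 14 lower in KO-labelled embryos, where 50.1% of all probe sets were lower, with a median difference of −0.04, beside −0.0002 over all 19615 probe sets. By limma 0 passed an adjusted p of 0.05, and 4 had an unadjusted p under 0.05, against 6.07% of all probe sets. Those 4 are 1 measurement, the Ccl21 copies.

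The Ccl21 copies, listed together by 4 probe sets with identical values (10504127, 10504154, 10504183 and 10512377), had the largest difference among the neighbours. They read 7.22, 6.92 and 6.90 in KO-labelled embryos and 7.36, 7.38 and 7.47 in WT-labelled embryos, so every KO-labelled embryo lay below every WT-labelled embryo. The means were 7.01 ± 0.18 in KO-labelled embryos, under the brightness filter, and 7.40 ± 0.06 in WT-labelled embryos (SD, n = 3 each). The difference of −0.39 (SE 0.11) did not pass (limma, 95% confidence interval −0.64 to −0.14, adjusted p = 0.792).

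The Ccl27 copies were bright in both groups. Their probe set 10512315 read 9.91, 9.79 and 9.97 in KO-labelled embryos and 10.18, 9.96 and 9.92 in WT-labelled embryos, and the groups overlapped (difference −0.13, limma 95% confidence interval −0.33 to 0.06, adjusted p = 0.822). The identical pair 10504164 and 10504194 read 9.24, 9.09 and 9.30 in KO-labelled embryos and 9.47, 9.27 and 9.24 in WT-labelled embryos (−0.11, 95% confidence interval −0.31 to 0.09, adjusted p = 0.834). Here WT 1 was the brightest head, where it was the dimmest WT-labelled embryo for the family. The 5 probe sets of Ccl19 lay between 7.25 and 7.64 in KO-labelled embryos and between 7.26 and 7.52 in WT-labelled embryos, with differences from −0.02 to +0.04. Without WT 1, the differences of the Ccl27 copies were −0.05 (10512315) and −0.04 (10504164 and 10504194), and without KO 2 they were −0.08 and −0.06. No probe set listed an Il11ra copy by name.

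Outside the span from Gm3893 to Gm21158, 13 probe sets above the filter differed by −0.10 to +0.05, 5 of them those of Ccl19. Over the remaining 8 the median was −0.03, with 2 higher and 6 lower. The heat shock protein gene Dnajb5 differed by −0.10 (8.23 ± 0.07 in KO-labelled and 8.33 ± 0.04 in WT-labelled embryos), the synaptic vesicle priming gene Unc13b by −0.09 (8.82 ± 0.11 and 8.90 ± 0.04) and the Fanconi anaemia DNA repair gene Fancg by −0.05 (8.74 ± 0.02 and 8.79 ± 0.03; SD, n = 3 each). None of these passed (limma, adjusted p from 0.831 to 0.880), and Unc13b was at −0.02 without KO 3.

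**Figure D2:**
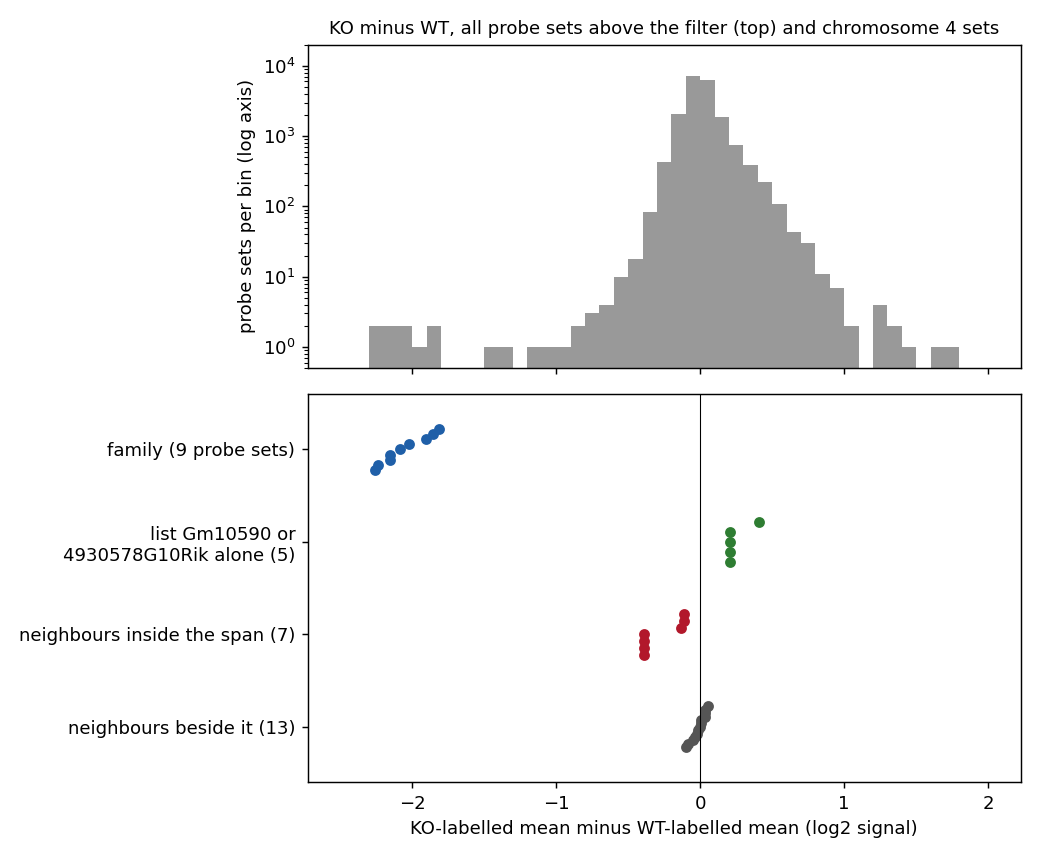
KO-labelled mean minus WT-labelled mean in log2 units (shared horizontal axis). The upper panel counts all 19615 probe sets above the filter in bins (logarithmic vertical axis), and the lower panel gives each probe set of 4 sets as a point. The 9 family probe sets lie between −2.26 and −1.81, and the neighbours between −0.39 and +0.05.

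Over all probe sets above the filter, the 9 members had the 9 largest differences downward, the contrast they were picked for. The next was probe set 10598041, which the annotation used here does not name, at −1.47. It read 7.39, 9.02 and 10.07 in KO-labelled embryos and 10.91, 10.10 and 9.87 in WT-labelled embryos, so its groups overlapped. After it came Cxcl13, which encodes a chemokine that attracts B cells, at −1.30. Both were singled out after their values were seen. Without the filter, Xist had a larger difference than any member, −2.49, which rests on WT 2 alone.

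The named genes whose profile was nearest to the family's were found by the root-mean-square distance between profiles over the 6 heads, each centred on its own mean, among 13070 probe sets with 1 symbol. A flat profile would lie 1.04 log2 units from the family mean, and the members themselves lay 0.03 to 0.13 from it. The nearest probe set, of the cytokine receptor gene Csf2rb, lay at 0.65, followed by Cxcl13 (0.67), the neuropeptide gene Sst, which encodes somatostatin (0.70), Gmnc, a regulator of multiciliated cells (0.72), and the retinoic acid synthesis gene Aldh1a1 (0.74). Each of them lay more than 5 times as far from the family mean as the farthest member, but the members make up that mean. They also list the same transcripts and were picked for their difference, so nothing is read from this ratio.

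Csf2rb read 6.98, 6.62 and 6.62 in KO-labelled embryos and 7.11, 7.59 and 7.89 in WT-labelled embryos, a difference of −0.79. Its KO-labelled mean, 6.74, lay under the brightness filter of 7.06. Csf2rb shares with the family the order of the WT-labelled embryos, which 23.9% of all probe sets above the filter have. Cxcl13 read 9.32, 7.72 and 7.77 in KO-labelled embryos and 9.72, 9.45 and 9.55 in WT-labelled embryos, so KO 1 lay near the WT-labelled embryos, unlike for any member. In Sst (−0.73), WT 1 at 8.78 lay within the KO-labelled range of 8.46 to 8.87. Gmnc differed by −0.67, with a KO-labelled mean of 6.90 that also lay under the filter. Aldh1a1 differed by −0.89 (−0.50 without KO 3). Csf2rb, Cxcl13, Gmnc and Aldh1a1 had every KO-labelled embryo below every WT-labelled embryo, where 6.24% of all probe sets above the filter did. All 5 were picked for nearness to a profile with this step, so nothing is read from that. None of these 5 passed in limma (adjusted p from 0.279 to 0.799).

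**Figure D3:**
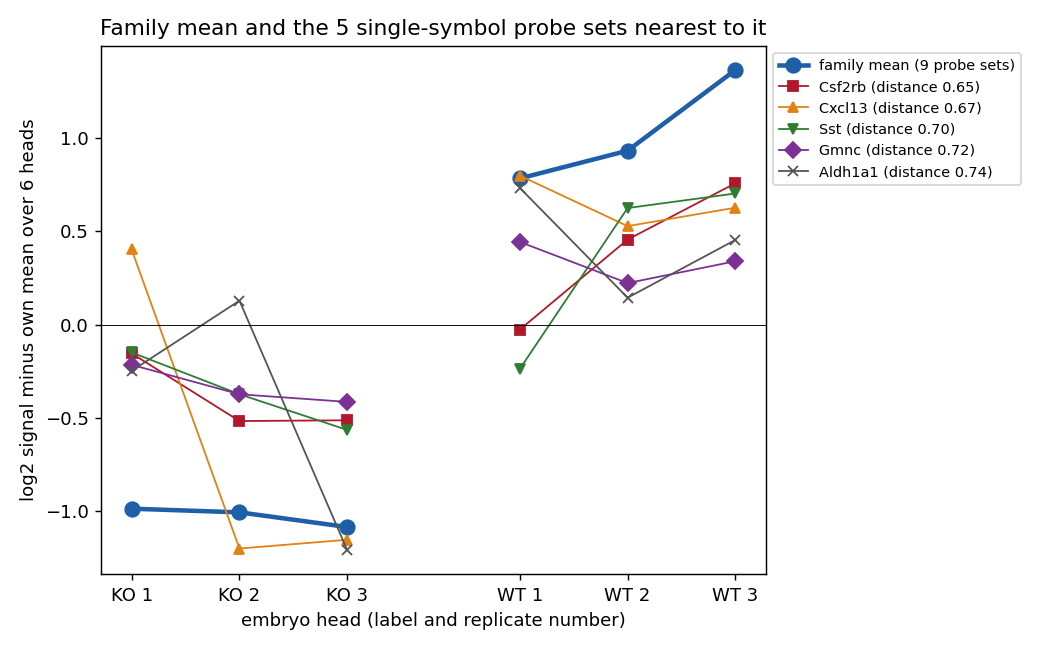
Log2 signal of the family mean and of the 5 nearest single-symbol probe sets, each minus its own mean over the 6 heads (vertical axis), by head (horizontal axis, KO-labelled left and WT-labelled right). The legend gives the root-mean-square distance to the family mean, from 0.65 for Csf2rb to 0.74 for Aldh1a1, and the family's step between the groups is larger than that of any of them.

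Markers of the dissected tissue and of other cell types were read beside the family. The mean level of the 5 erythroid markers was 11.93 to 12.02 in KO-labelled embryos and 12.03 to 12.11 in WT-labelled embryos, without overlap, with 4 of the 5 genes above the filter. The ranges of the mesenchyme, endothelium, surface ectoderm, macrophage, hindbrain and germ cell lists overlapped between the groups. So did those of the forebrain and midbrain list, 9.84 to 9.91 in KO-labelled and 9.82 to 10.06 in WT-labelled embryos. Within that list Lhx2 (−0.33), Emx2 (−0.32) and Six3 (−0.095) were lower in KO-labelled embryos. En2 (+0.16), En1 (+0.08), Otx2 (+0.04) and Sox2 (+0.03) were higher. Median differences over the lists ran from −0.11 to +0.03. The part of these cells in the family's difference was not tested.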

How the data were processed

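The authors deposited 1 log2 signal for each probe set in each of the 6 heads. Per the submitters' processing notes, Affymetrix Expression Console and MAS5 were used; how the authors scaled arrays and summarised probes is not stated in the sources used here. Values were used as deposited, with no offset. Symbols came from the platform annotation (21789 probe sets with 1 symbol, 1621 with several, 12146 not listed there). Probe sets with a mean below the 40th percentile of those with 1 symbol (7.06) were left out, and 19615 stayed.

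The groups were compared over all of these with limma 3.58.1 in R 4.3.3 (two-sided, eBayes with trend, Benjamini-Hochberg, threshold 0.05). Each difference is the KO-labelled minus the WT-labelled mean. The number of arrays limits the precision: 3 against 3 cannot give an exact permutation p below 0.1. The procedure was tested on simulated data. Named genes were all members, probe sets listing 1 member, neighbouring genes (Ccl copies and the 5 smallest p), the 5 nearest profiles, Tasp1 and sex-linked genes. Members, lists and rules were chosen with earlier results of these data known. The labels pair no embryos, and deviations of same-numbered heads did not go together (correlations −0.16, −0.003 and −0.34), so no block was used. Figures were drawn with matplotlib 3.10.9. In the neighbour rule, only the main sequence of chromosome 4 was used.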

Additional observations from a re-analysis of the deposited data

How the results depend on the processing

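The family's mean difference of −2.05 stayed between −2.18 and −1.75 over 15 alternatives (other normalization, offsets, choices of members, the replicate block and each head left out). It was −1.75 with 64 added on the linear scale and −1.84 over the 7-symbol probe sets. With each head left out it ran from −2.18 (without WT 1) to −1.89 (without WT 3), and with same-numbered heads as a replicate block it was −2.05. All 9 members kept non-overlapping groups in the 9 alternatives run for that count. The 9 probe sets called over the whole table were 4 with the replicate block, though the numbers do not pair the heads. Leaving out each head gave 0 to 10. It was 0 without KO 2, without KO 3 and without WT 2 (570, 1292 and 1218 at an unadjusted p under 0.05), and the cause was not tested. Without KO 1 it was 10, of which 8 were members and 2 were Ccng1 and Cxcl13 (Cxcl13 at −1.83, limma adjusted p = 0.022). All calls in the other alternatives were of members. The probe sets of the neighbouring genes had 0 calls in 13 alternatives. Their median ran from −0.11 to −0.03 in 12, and from −0.09 to −0.03 with each head left out. The differences of the Ccl21 copies (−0.49 to −0.34), the Ccl27 copies (−0.18 to −0.05 for 10512315, −0.16 to −0.04 for the other value), Gm10590 alone (+0.07 to +0.38) and 4930578G10Rik alone (+0.11 to +0.67) kept their sign in the alternatives run.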
